A study of Mus musculus with 6 samples.

Results

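The genes described here were the matrix proteases and their inhibitors: the matrix metalloproteinases (MMPs), the tissue inhibitors of metalloproteinases (TIMPs), the ADAMTS proteases, the ADAMTS-like proteins and the ADAM proteins. They were chosen by gene symbol together with a count of at least 10 in at least 3 of the 6 libraries, a rule that did not use the genotype. Of the 37384 symbols in the count table, 85 had a symbol of one of these families and 57 met the count rule, namely 16 of 23 MMPs, 4 of 4 TIMPs, 18 of 19 ADAMTS genes, 5 of 5 ADAMTS-like genes and 14 of 34 ADAMs. The other 28 symbols were below the rule, and 17 of them were listed at 0 in all libraries. Just inside the rule were *Mmp13*, *Mmp27* and *Adam5*, whose counts ran from 2 to 45, from 0 to 30 and from 10 to 20, and just outside it was *Adam3*, which reached 10 in 2 libraries only.

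RNA was measured in adipocytes of the inguinal subcutaneous white adipose tissue (scWAT) of male mice at postnatal day 7, and each library was made from a pool of 4 mice. The 3 L1L2-FF libraries came from *Lats1* f/f *Lats2* f/f mice, which carry floxed alleles of both Hippo pathway kinases and no Cre. The 3 L1L2-AKO libraries came from mice with the same floxed alleles and *Adipoq* Cre, which is active in cells that express *Adipoq*. Cells that never expressed *Adipoq* keep intact alleles. At later ages, the paper traced cells of the *Adipoq* Cre lineage to progenitors and myofibroblasts. Per the methods, the floxed *Lats1* line is C57BL/6-129-CD1 and the floxed *Lats2* line C57BL/6-129. Adipocytes were freed with collagenase and collected by flotation, so that RNA of other cells that floated with them was also sequenced. Total counts ran from 30548473 to 32107917 per library, which left counting error small for all but the rarest of these genes. The error given is therefore the spread between libraries, as SD over the 3 pools of a genotype or as SE of the log2 fold change. The p-values test the difference between genotypes against the spread between pools.

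Extracellular matrix is cleaved by zinc-dependent enzymes that are made as inactive precursors. MMPs cut collagens, gelatin and other matrix proteins, ADAMTS enzymes cut mainly proteoglycans and procollagens, and ADAMs are membrane proteins of which many shed the outer parts of other membrane proteins. TIMPs bind the active site of these enzymes and block it, with TIMP3 also acting on ADAMs and ADAMTS enzymes, and TIMP2 having a further role at the cell surface, where it bridges MMP14 and the precursor of MMP2 so that the precursor can be activated. In adipose tissue, MMP14 is known for clearing the collagen around growing adipocytes.

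*Lats1* and *Lats2*, the targeted genes, were examined first. *Lats1* was at 82.9 ± 9.90 counts per 1000000 (CPM) (SD, n = 3) in L1L2-FF and at 40.2 ± 1.16 in the libraries labelled L1L2-AKO (edgeR, log2 fold change -1.04, SE 0.118, adjusted p = 0.00131). *Lats2* went against its label, at 76.4 ± 8.68 CPM in L1L2-FF and 119 ± 20.6 in the libraries labelled L1L2-AKO (edgeR, log2 fold change 0.64, SE 0.156, adjusted p = 0.0278), but this call was lost without L1L2-FF replicate 1 or 3 or L1L2-AKO replicate 2 or 3, at an adjusted p from 0.0651 to 0.104. In a separate mRNA measurement, the paper reported less *Lats1* and less *Lats2* in adipocytes from scWAT of L1L2-AKO males of this age. Whether the reads counted here cover the deleted exons was not tested. Each direction below is therefore that of the libraries as labelled. Among the L1L2-FF libraries, replicate 2 held the highest value of the group for 30 of the 57 genes (52.6%), against 40.0% of all tested genes. Replicate 3 held it for 10 of the 57 (17.5%), against 36.0% of all tested genes.

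Between the genotypes, 15 of the 57 genes rose in the libraries labelled L1L2-AKO and 1 fell at an adjusted p under 0.05 by edgeR's quasi-likelihood test. *Adamts5*, a proteoglycan-degrading enzyme, had the largest fold change of the 57, at 14.7-fold, and it was joined by 3 of the 4 TIMPs, 5 MMPs, *Adamts1*, *Adamts8*, *Adamtsl2* and 3 ADAMs. The gene that fell was *Adamts20*. The share called was 28.1% of the 57 genes, against 16.5% of the 15674 tested genes. By direction, 26.3% were higher and 1.75% lower, against 9.28% and 7.18% of all tested genes. Without *Mmp13*, for which no L1L2-FF library reached 10 counts, 14 of 56 genes were higher (25.0%). *Mmp27* and *Adamts8* also needed libraries labelled L1L2-AKO to meet the count rule. Both are still among these 56 genes, and *Adamts8* is among the 14. The values of the 2 groups did not overlap for 30 of the 57 genes (52.6%), of which 22 lay higher and 8 lower in L1L2-AKO, against 36.4% of all tested genes. The median log2 fold change was 0.11 over the 57 genes and -0.02 over all tested genes. Of the 41 genes not called, 17 had a log2 fold change above 0 and 24 below. Of the 16 called, 10 were called whichever library was left out. In each fold change, up or down, a changed share of cells of a type and changed RNA per cell cannot be told apart, since whole preparations were sequenced.

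**Figure D1:**
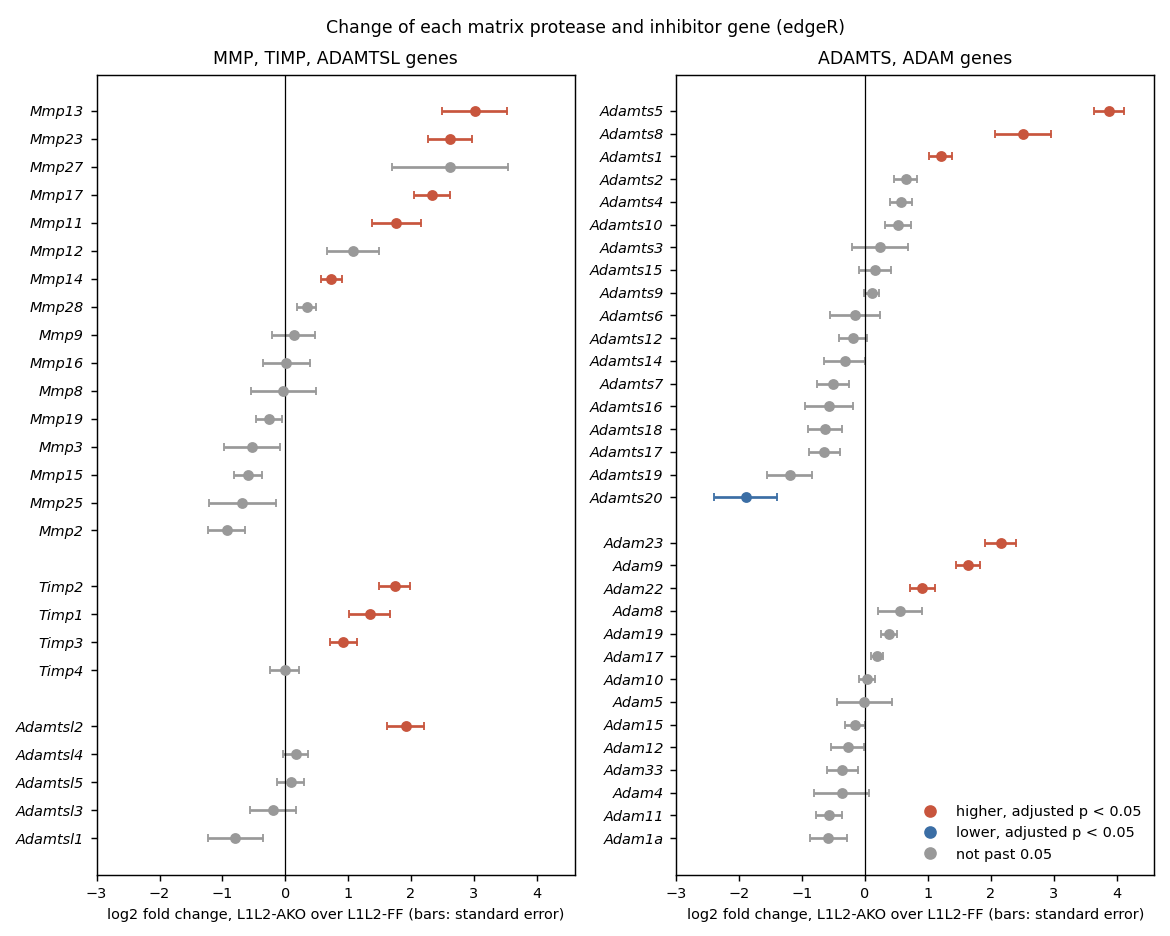
Log2 fold change (L1L2-AKO minus L1L2-FF, x axis) of each of the 57 genes, arranged by family, with bars of 1 standard error, red for genes higher and blue for genes lower at an adjusted p under 0.05, and grey for the others. The 15 red points lie across all families, the blue point is *Adamts20*, and *Adamts5* lies farthest to the right.

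The inhibitors were dominated by *Timp2* and *Timp3*, and both rose together with *Timp1*, while *Timp4* did not pass the test. *Timp2* (chr11:118301069-118355740, minus strand, mm10), the TIMP that both inhibits MMPs and takes part in MMP2 activation, was at 93.4, 126 and 75.1 CPM in L1L2-FF replicates 1 to 3 and at 246, 327 and 409 CPM in L1L2-AKO replicates 1 to 3. Every library labelled L1L2-AKO lay above every L1L2-FF library. Its mean rose 3.34-fold, from 98.1 ± 25.7 to 327 ± 81.4 CPM (edgeR, log2 fold change 1.74, SE 0.243, adjusted p = 0.00299), and the call held in all 6 fits that left out 1 library.

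*Timp3* (chr10:86300372-86349506, plus strand), the matrix-bound TIMP, was at 127, 195 and 108 CPM in L1L2-FF and at 292, 257 and 267 CPM in L1L2-AKO. The groups did not overlap, although L1L2-FF replicate 2 lay well above the other two. The rise was 1.89-fold (edgeR, log2 fold change 0.92, SE 0.215, adjusted p = 0.0239). It passed without L1L2-FF replicate 2 or 3, and the adjusted p was 0.102 without L1L2-FF replicate 1 and 0.0590, 0.0661 and 0.0667 without L1L2-AKO replicates 1, 2 and 3 in edgeR. *Timp3* lies within *Syn3* on the opposite strand and shares 1733 exon bases with it, and *Syn3* itself had between 16 and 47 counts per library.

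*Timp1* (chrX:20870166-20874735, plus strand), a secreted inhibitor often raised in inflamed or injured tissue, was far rarer, at 1.95, 1.08 and 1.90 CPM in L1L2-FF and 3.14, 5.52 and 3.84 CPM in L1L2-AKO. All libraries labelled L1L2-AKO were above all L1L2-FF libraries. The mean rose 2.53-fold, from 1.64 ± 0.487 to 4.17 ± 1.22 CPM (edgeR, log2 fold change 1.34, SE 0.328, adjusted p = 0.0286). This call was lost in edgeR with the replicate number as a block (adjusted p = 0.0574) and without L1L2-FF replicate 1 (0.0702), L1L2-FF replicate 3 (0.0503), L1L2-AKO replicate 2 (0.116) or L1L2-AKO replicate 3 (0.0716). *Timp4*, a TIMP with a narrow tissue range that includes fat, was at 26.4, 25.4 and 16.9 CPM in L1L2-FF and 19.6, 29.7 and 18.6 CPM in L1L2-AKO. Its groups overlapped, and the log2 fold change was -0.01 with an SE of 0.233 (edgeR, adjusted p = 0.981).

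Of the genes for MMP14 and MMP2, the enzymes of the activation route that TIMP2 takes part in, *Mmp14* rose and *Mmp2* did not pass the test, and the difference between them was not tested. *Mmp14* (chr14:54431612-54445364, plus strand), the membrane-type collagenase, was at 76.9, 74.3 and 50.2 CPM in L1L2-FF and at 111, 113 and 111 CPM in L1L2-AKO. The libraries labelled L1L2-AKO were nearly equal to each other and above all L1L2-FF libraries. The rise was 1.66-fold (edgeR, log2 fold change 0.73, SE 0.165, adjusted p = 0.0214) and no longer passed without L1L2-AKO replicate 2 (adjusted p = 0.0764) or replicate 3 (0.0644).

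*Mmp2* (chr8:92827291-92853420, plus strand), the gelatinase that MMP14 activates, was at 64.1, 104 and 41.5 CPM in L1L2-FF and 38.8, 38.9 and 32.2 CPM in L1L2-AKO. Each library labelled L1L2-AKO was below each L1L2-FF library, but L1L2-FF replicates 2 and 3 differed more from each other than replicate 3 did from L1L2-AKO. The mean went from 69.8 ± 31.5 to 36.6 ± 3.85 CPM, and the log2 fold change of -0.93 (SE 0.293) did not pass the test (edgeR, adjusted p = 0.0662). It passed in DESeq2 (adjusted p = 0.0137), and in edgeR without the filter on low counts (0.0367), with the replicate block (0.0403) and without L1L2-FF replicate 3 (0.0141). *Mmp9*, the other gelatinase, which leukocytes make in quantity, was at 2.38 ± 1.08 CPM in L1L2-FF and 2.61 ± 0.210 in L1L2-AKO, with a log2 fold change of 0.13 (SE 0.345).

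**Figure D2:**
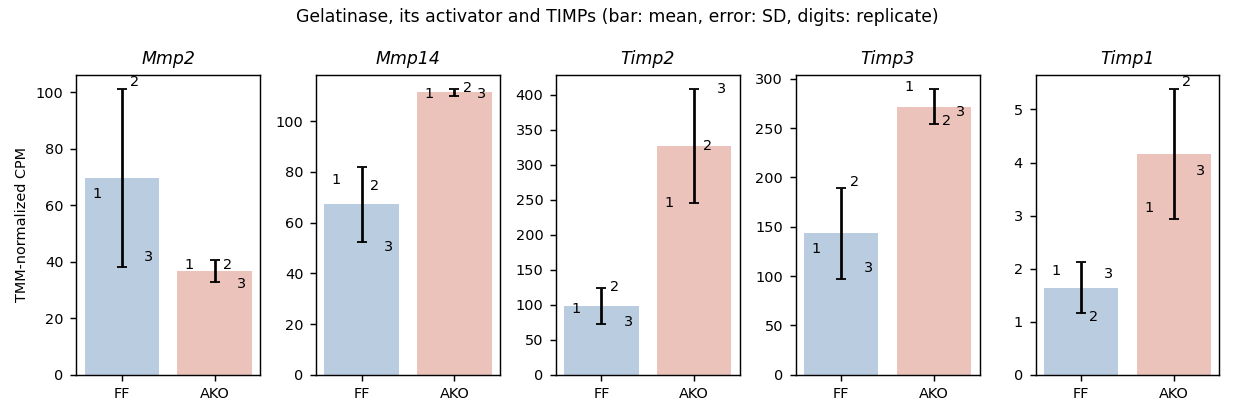
CPM (y axis, a scale of its own in each panel) of *Mmp2*, *Mmp14*, *Timp2*, *Timp3* and *Timp1* in L1L2-FF and L1L2-AKO, with bars for the mean of the 3 libraries, error bars for the SD and digits for each library at its value. *Mmp2* lies lower in L1L2-AKO and the others lie higher, and the spread of *Mmp2* in L1L2-FF runs from 41.5 to 104 CPM.

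Of the other membrane-type MMPs, *Mmp17*, which is held at the membrane by a lipid anchor, rose 5.05-fold. It was at 2.17, 2.50 and 2.87 CPM in L1L2-FF and 8.30, 12.9 and 16.9 CPM in L1L2-AKO (edgeR, log2 fold change 2.33, SE 0.284, adjusted p = 0.00172). The lowest library labelled L1L2-AKO was above the highest of L1L2-FF, and the call held with any library left out. *Mmp15*, a transmembrane relative of *Mmp14*, was at 79.8, 69.8 and 76.7 CPM in L1L2-FF and 67.7, 48.8 and 33.7 CPM in L1L2-AKO. The groups did not overlap, yet the log2 fold change of -0.59 (SE 0.227) did not pass (edgeR, adjusted p = 0.119), except without L1L2-AKO replicate 1 (0.0210). *Mmp16* and *Mmp25*, a transmembrane and a lipid-anchored MMP, were near 1 to 2 CPM and did not pass, with log2 fold changes of 0.02 (SE 0.374) and -0.68 (SE 0.529).

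*Mmp23* (chr4:155650655-155653384, minus strand), an unusual MMP that lacks the hemopexin domain and the cysteine switch of its relatives, had the largest rise of the MMPs that were above 1 CPM in L1L2-FF. Its levels were 12.1, 9.37 and 6.57 CPM in L1L2-FF and 31.7, 64.7 and 76.1 CPM in L1L2-AKO. The groups were far apart, with L1L2-AKO replicate 1 the lowest of its group. The rise was 6.16-fold, from 9.34 ± 2.75 to 57.5 ± 23.1 CPM (edgeR, log2 fold change 2.62, SE 0.349, adjusted p = 0.00243), and it passed with any library left out.

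*Mmp11*, or stromelysin 3, which unlike most MMPs leaves the cell already active, was at 5.46, 6.62 and 2.71 CPM in L1L2-FF and 9.41, 19.4 and 21.5 CPM in L1L2-AKO. The groups did not overlap, and the rise was 3.40-fold (edgeR, log2 fold change 1.76, SE 0.394, adjusted p = 0.0202). The call was lost in edgeR when L1L2-FF replicate 1 (adjusted p = 0.0677), L1L2-AKO replicate 2 (0.0739) or L1L2-AKO replicate 3 (0.0736) was left out. It shares 155 exon bases with *Chchd10* on the opposite strand, which had from 2597 to 6029 counts per library and whose direction was the other one, with a log2 fold change of -0.46 (edgeR, adjusted p = 0.186). *Mmp3*, or stromelysin 1, was under 1 CPM in both genotypes, and did not pass either (log2 fold change -0.53, SE 0.442).

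Among the collagenases, *Mmp13* (chr9:7272514-7283331, plus strand), which cuts fibrillar collagen, went from counts of 2, 4 and 9 in L1L2-FF to 34, 42 and 45 in L1L2-AKO. It was the only one of the 57 genes to meet the count rule through the libraries labelled L1L2-AKO alone, so it could be included only because it was high there. In CPM it rose 8.06-fold, from 0.159 ± 0.117 to 1.31 ± 0.273 (edgeR, log2 fold change 3.01, SE 0.521, adjusted p = 0.00725), a call that its way into the set leaves as a description. *Mmp8*, the neutrophil collagenase, was near 1 CPM in both genotypes, with a log2 fold change of -0.03 (SE 0.513).

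The remaining MMPs did not pass. *Mmp12*, the macrophage elastase, was at 0.862, 2.47 and 1.13 CPM in L1L2-FF and 2.35, 3.62 and 3.49 CPM in L1L2-AKO. The groups overlapped because L1L2-FF replicate 2 was just above L1L2-AKO replicate 1, and the log2 fold change of 1.08 (SE 0.415) had an adjusted p of 0.120 in edgeR, or 0.0145 without L1L2-FF replicate 2. *Mmp27*, which neighbours *Mmp8*, had counts of 1, 11 and 0 in L1L2-FF and 13, 30 and 30 in L1L2-AKO. It too met the count rule only because of the libraries labelled L1L2-AKO. Its log2 fold change was 2.62 (SE 0.919, edgeR, adjusted p = 0.0922). It passed in DESeq2 (0.0440), in limma-voom (0.0492) and without L1L2-FF replicate 2 (0.0109), and these passes are likewise descriptions. *Mmp28*, a secreted MMP of epithelia, was above L1L2-FF in each library labelled L1L2-AKO, at 73.4 ± 12.7 against 57.9 ± 6.75 CPM, without passing (edgeR, adjusted p = 0.173). *Mmp19*, a basement membrane protease, was at 42.5 ± 10.9 CPM in L1L2-FF and 35.5 ± 5.88 in L1L2-AKO, and its groups overlapped.

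ADAMTS enzymes that cut the large proteoglycans held the largest change. *Adamts5* (chr16:85856173-85901828, minus strand), which cuts aggrecan and versican, had counts of 3790, 2622 and 3554 in L1L2-FF and 44255, 44056 and 54848 in L1L2-AKO. Every count in the libraries labelled L1L2-AKO was more than 10 times every count in L1L2-FF. In CPM it rose 14.7-fold, from 106 ± 21.4 to 1549 ± 318 (edgeR, log2 fold change 3.88, SE 0.240, adjusted p = 0.00018), and the adjusted p was at most 0.00234 with any library left out. *Adamts1* (chr16:85793827-85803113, minus strand), a related protease that lies 53.1 kb from *Adamts5* on the same strand, was at 270, 219 and 207 CPM in L1L2-FF and 426, 566 and 609 CPM in L1L2-AKO. Its groups were also apart, and it rose 2.30-fold (edgeR, log2 fold change 1.20, SE 0.180, adjusted p = 0.00393).

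*Adamts8*, a rarer proteoglycanase, was at 0.383, 0.680 and 0.258 CPM in L1L2-FF and 1.60, 3.11 and 2.93 CPM in L1L2-AKO. It rose 5.72-fold with no overlap (edgeR, log2 fold change 2.52, SE 0.446, adjusted p = 0.00796), and 489 of its exon bases are overlapped by an antisense gene model, *Gm29724*. Its L1L2-FF counts were 12, 22 and 8, so it met the count rule only with the libraries labelled L1L2-AKO. Its call is therefore a description. *Adamts20*, a versican-cleaving enzyme known from pigment cell development, was at 3.22, 11.2 and 5.16 CPM in L1L2-FF and 1.27, 2.63 and 1.33 CPM in L1L2-AKO. The groups did not overlap, but L1L2-FF replicate 2 was well over the other two. It was 3.73-fold lower in the libraries labelled L1L2-AKO (edgeR, log2 fold change -1.90, SE 0.499, adjusted p = 0.0366). The call was lost in limma-voom (adjusted p = 0.0642) and in 5 of the 6 edgeR fits that left out a library, namely those leaving out L1L2-FF replicate 2 (0.0641) or 3 (0.0553) or L1L2-AKO replicate 1 (0.0975), 2 (0.0506) or 3 (0.129).

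The other 14 ADAMTS genes were not called. *Adamts2*, which removes the N-propeptide of fibrillar procollagens, was at 119, 118 and 127 CPM in L1L2-FF and 144, 181 and 243 CPM in L1L2-AKO. No L1L2-AKO value was as low as any of L1L2-FF, and the adjusted p lay at the threshold (edgeR, log2 fold change 0.64, SE 0.185, adjusted p = 0.0501). It was under the threshold in DESeq2 (0.0120) and, in edgeR, with DESeq2 size factors (0.0485), library size alone (0.0320), no filter (0.0352), at least 10 counts in every library (0.0494), the replicate block (0.0460) and without L1L2-AKO replicate 1 (0.0167). It was over it with upper-quartile normalization (0.0529), in limma-voom (0.0550), and at 0.0802 to 0.149 with any other library left out. *Adamts4* and *Adamts9*, proteoglycanases named after their values were seen, had log2 fold changes of 0.58 (SE 0.175, edgeR, adjusted p = 0.0590, or 0.0263 in DESeq2) and 0.11 (SE 0.117, edgeR, adjusted p = 0.603). The 11 others had log2 fold changes from -1.20 (*Adamts19*, edgeR, adjusted p = 0.0561) to 0.52 (*Adamts10*, edgeR, adjusted p = 0.126, or 0.0315 without L1L2-FF replicate 2). Of these 11, 3 did not overlap, all lower in L1L2-AKO, against 36.4% of all tested genes in either direction. *Adamts19* passed in DESeq2 (0.0314), with at least 10 counts in every library (0.0424) and without L1L2-FF replicate 2 (0.0477). Of all 18 ADAMTS genes, 3 rose and 1 fell (22.2% called, against 16.5% of all tested genes), and the 4 called are among the 7 proteoglycanases, a difference between groups that was not tested. The median log2 fold change of the 18 was -0.03.

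Of the ADAMTS-like proteins, which resemble ADAMTS enzymes but lack the protease domain, *Adamtsl2* alone passed. This protein, which binds fibrillin microfibrils, was at 0.479, 0.557 and 0.580 CPM in L1L2-FF and 2.02, 1.87 and 2.23 CPM in L1L2-AKO. Both groups were tight and far apart, and the rise was 3.77-fold (edgeR, log2 fold change 1.91, SE 0.291, adjusted p = 0.00422). *Adamtsl4*, *Adamtsl5* and *Adamtsl3*, the more abundant members, had log2 fold changes of 0.16 (SE 0.199), 0.09 (SE 0.216) and -0.20 (SE 0.361), and their groups overlapped. *Adamtsl1*, the last of the family, was at a log2 fold change of -0.80 (SE 0.439) with overlap.

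Of the 14 ADAMs, 3 rose and 0 fell (21.4% called, against 16.5% of all tested genes). *Adam9* (chr8:24949611-25016927, minus strand), a widely expressed sheddase, was at 127, 110 and 127 CPM in L1L2-FF and 286, 379 and 467 CPM in L1L2-AKO. The lowest L1L2-AKO value was more than 2 times the highest of L1L2-FF, and the mean rose 3.11-fold (edgeR, log2 fold change 1.64, SE 0.190, adjusted p = 0.00142). *Adam23* (chr1:63445891-63596276, plus strand), which lacks the zinc-binding site and acts in cell adhesion, was at 51.3, 42.7 and 52.5 CPM in L1L2-FF and 148, 202 and 303 CPM in L1L2-AKO. Its groups were apart as well, and it rose 4.45-fold (edgeR, log2 fold change 2.15, SE 0.253, adjusted p = 0.00149).

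*Adam22*, a close relative of *Adam23* that is likewise no protease and is known from synapses, was at 6.51, 7.70 and 5.41 CPM in L1L2-FF and 10.3, 12.3 and 14.3 CPM in L1L2-AKO. The groups did not overlap and the rise was 1.88-fold (edgeR, log2 fold change 0.91, SE 0.199, adjusted p = 0.0185). It did not pass in edgeR without L1L2-FF replicate 1 (0.0708), L1L2-AKO replicate 2 (0.0684) or L1L2-AKO replicate 3 (0.0703). *Adam12*, an ADAM of mesenchymal cells and the most abundant ADAM by CPM in L1L2-FF, was at 215, 126 and 261 CPM there and 196, 134 and 166 CPM in L1L2-AKO, so that the groups overlapped. Its log2 fold change was -0.28 (SE 0.262, edgeR, adjusted p = 0.529). The major sheddases *Adam10* and *Adam17*, named after their values were seen, were not called either, with log2 fold changes of 0.03 (SE 0.121) and 0.19 (SE 0.0977). The 8 others ran from a log2 fold change of -0.58 (*Adam1a*) to 0.55 (*Adam8*). Of these 8, 4 did not overlap, 2 on each side, against 36.4% of all tested genes. *Adam1a* shares 77.8% of its stretches of 50 bases with another gene model, so its value is uncertain.

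**Figure D3:**
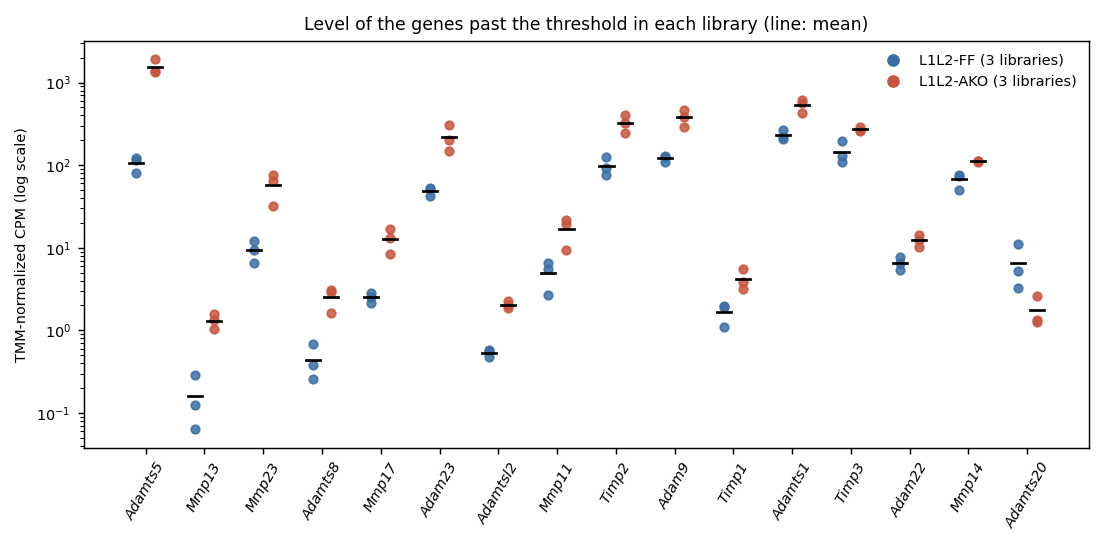
CPM (log axis) of the 16 genes past the threshold, with 1 point per library, blue for L1L2-FF and red for L1L2-AKO, and a line at the mean of each 3 libraries. The groups are separate for each gene, and *Adamts5* moves from about the level of *Adam9* to the highest level shown.

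To compare levels between genes, counts were divided by exon length and scaled to transcripts per 1000000 (TPM). On this scale *Adamts1* was the highest of the 57 genes in L1L2-FF, at 127 ± 18.1 TPM, followed by *Adam9* at 85.3 ± 2.69, *Timp2* at 73.8 ± 23.5, *Adam10* at 73.2 ± 8.53 and *Mmp2* at 61.1 ± 30.9 TPM. The spread of *Timp2* took in the levels of *Adam9*, *Adam10* and *Mmp2*. That of *Mmp2* took in *Adam9*, *Timp2* and *Adam10*, and also lower genes such as *Adam12* at 54.4 and *Timp3* at 51.7 TPM. In L1L2-AKO *Adamts5* came first, at 437 ± 55.6 TPM, from 28.2 ± 4.50 TPM in L1L2-FF. It was followed by *Adamts1* at 307 ± 36.2, *Adam9* at 279 ± 46.1 and *Timp2* at 255 ± 44.2 TPM. The spreads of *Adamts1* and *Adam9* took in each other's level, as did those of *Adam9* and *Timp2*.

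Summed over the MMPs, the TIMPs, the ADAMTS genes or the ADAMs, the level in TPM was higher in every library labelled L1L2-AKO than in any of L1L2-FF. The MMP sum was 229, 284 and 200 TPM in L1L2-FF and 304, 326 and 320 in L1L2-AKO. The TIMP sum was 132, 191 and 104 TPM in L1L2-FF and 350, 393 and 410 in L1L2-AKO. TIMP transcripts were thus fewer than MMP transcripts in each L1L2-FF library and more numerous in each library labelled L1L2-AKO, with a ratio of 0.590 ± 0.0759 against 1.21 ± 0.0655. No test was made of these sums and ratios, which are descriptions of transcripts and not of protein or activity.

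The ratio of *Timp2* to *Mmp2* in TPM was 1.29 ± 0.258 in L1L2-FF and 7.91 ± 2.81 in L1L2-AKO. Against *Mmp14*, *Timp2* stood at 1.86, 2.59 and 2.29 in L1L2-FF and 3.40, 4.43 and 5.65 in L1L2-AKO. Both ratios were higher in all libraries labelled L1L2-AKO. *Timp3*, the inhibitor known to block ADAMTS5, moved the other way against that enzyme, with 1.39, 3.19 and 1.25 *Timp3* transcripts per *Adamts5* transcript in L1L2-FF and 0.290, 0.244 and 0.185 in L1L2-AKO. *Adamts5* made up 9.94, 7.17 and 11.3% of the ADAMTS sum in L1L2-FF and 47.7, 43.9 and 49.7% in L1L2-AKO, and *Timp2* made up 51.8 ± 0.448% and 66.0 ± 6.32% of the TIMP sum.

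**Figure D4:**
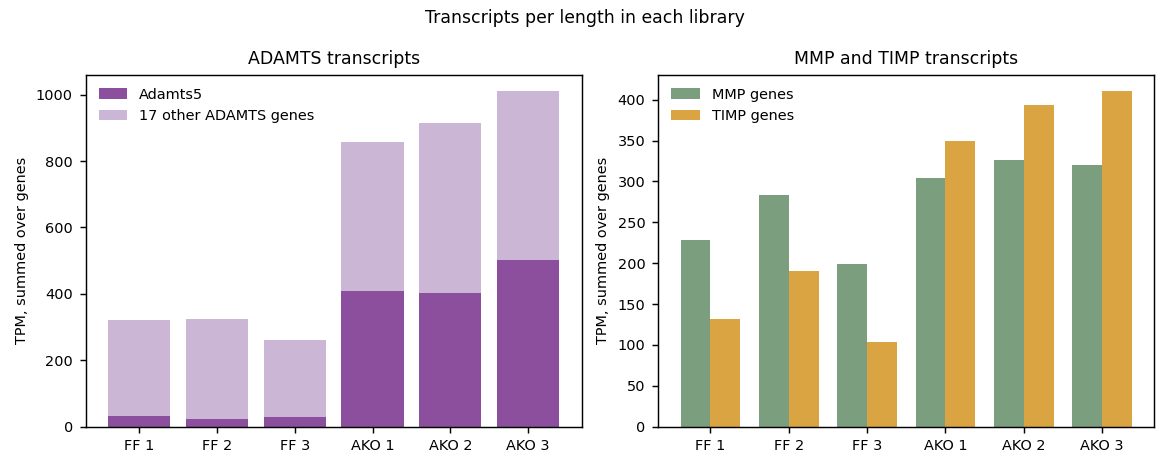
Summed TPM (y axis) in each library, on the left of the ADAMTS genes with *Adamts5* set apart from the other 17, and on the right of the MMP and TIMP genes. The TIMP sum exceeds the MMP sum in the 3 libraries labelled L1L2-AKO only, and *Adamts5* accounts for 43.9% to 49.7% of the ADAMTS sum there.

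The position and promoters of the called genes were then read. *Adamts1* and *Adamts5* were the only neighbouring family members that were both called. *Mmp13* lies 61.0 kb from *Mmp12*, *Adamts8* 20.1 kb from *Adamts15* and *Adam9* 125 kb from *Adam5*, and *Mmp12*, *Adamts15* and *Adam5* were not called. RefSeq promoter windows of 300 bases (GRCm38.p6, 250 bases before the start and 50 after) were at hand for 36 of the 57 genes and for 12 of the 16 called, with *Adamts5*, *Adam9*, *Mmp17* and *Adamts8* among those without. The AP-1 motif TGANTCA was searched on both strands because AP-1 sites are known from MMP promoters. It was found for 4 of the 36 genes (11.1%) and for 1 of the 11 that rose (9.09%). Of the 11441 tested genes with a window, 6.55% had it, as did 80 of the 1111 that rose. The TEAD motif GGAATG was searched on both strands because TEAD factors act below the Hippo pathway. It was found for 3 of the 36 genes (8.33%) and 1 of those 11, against 14.6% of the same tested genes and 16.8% of those that rose.

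The called genes with a match were *Mmp13*, with TGACTCA starting 35 bases before the start, and *Timp1*, with GGAATG starting 247 bases before it. Their 250 upstream bases are shown 5′ to 3′ on the gene's strand with the match in capitals, beside those of *Adamts1*, a strongly expressed gene that rose and has neither motif in its window. The stretches are chr9:7272264-7272513 (plus) for *Mmp13*, chrX:20869916-20870165 (plus) for *Timp1* and chr16:85803114-85803363 (minus) for *Adamts1*.
Mmp13: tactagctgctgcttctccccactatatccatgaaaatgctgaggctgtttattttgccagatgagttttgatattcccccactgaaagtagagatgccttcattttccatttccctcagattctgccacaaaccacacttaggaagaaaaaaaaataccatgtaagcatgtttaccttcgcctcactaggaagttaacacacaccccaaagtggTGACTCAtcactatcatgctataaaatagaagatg
Timp1: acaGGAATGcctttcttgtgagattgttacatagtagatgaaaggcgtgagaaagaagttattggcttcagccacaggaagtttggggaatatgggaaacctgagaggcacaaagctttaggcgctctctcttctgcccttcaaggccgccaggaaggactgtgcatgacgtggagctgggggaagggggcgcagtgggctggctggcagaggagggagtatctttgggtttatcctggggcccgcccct
Adamts1: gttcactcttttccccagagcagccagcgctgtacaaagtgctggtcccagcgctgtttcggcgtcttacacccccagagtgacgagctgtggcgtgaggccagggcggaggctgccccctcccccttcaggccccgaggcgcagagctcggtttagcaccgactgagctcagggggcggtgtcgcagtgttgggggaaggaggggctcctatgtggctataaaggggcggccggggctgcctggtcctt
A match is a run of letters and was not tested as a binding site.

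Marker RNA of several cell types differed between the genotypes, and these values stand beside all results above. Here too, a changed share of cells and changed RNA per cell cannot be told apart. Adipocyte markers were high in all libraries, with *Adipoq* at a mean of 2108 CPM in L1L2-FF and 878 in L1L2-AKO. Their summed CPM ran from 30102 to 41752 in L1L2-FF and from 19323 to 24991 in L1L2-AKO, with 3 of 10 lower past the threshold and 0 higher. *Car3*, the marker with the highest mean, weighs most in these sums and went from 17467 ± 4915 to 6896 ± 1233 CPM. The 3 called were *Adipoq*, *Car3* and *Pparg*, the last at a log2 fold change of -0.59. *Plin1*, *Lipe* and *Pnpla2* lay lower without overlap and were not called, at -0.65, -0.58 and -0.62. *Fabp4* overlapped, at -0.30. *Plin4* and *Cidec* were flat, with log2 fold changes of 0.00062 and -0.00606. *Lep* was at 694 and 924 CPM (edgeR, log2 fold change 0.41, adjusted p = 0.356). Macrophage markers ran from 272 to 532 CPM in L1L2-FF and from 980 to 1091 in L1L2-AKO, and 11 of 12 were higher. Neutrophil markers ran from 18.0 to 35.5 and from 15.4 to 23.6 CPM, with 0 of 8 tested past the threshold. Fibroblast and progenitor markers ran from 1186 to 1614 and from 752 to 845 CPM (4 of 10 lower). *Dpt* made up the largest part of the L1L2-FF sums and went from 850 ± 279 to 257 ± 45.0 CPM. Of those not called, *Pdgfrb* lay higher and *Cd34* lower without overlap (log2 fold changes 0.45 and -0.53). *Pdgfra*, *Dpp4*, *Ly6a* and *Icam1* overlapped, at -0.21, 0.09, -0.01 and -0.48. Mural markers ran from 903 to 1197 and from 553 to 824 CPM (1 of 8 higher, 4 lower). *Rgs5* was the largest part in L1L2-FF and went from 550 ± 112 to 236 ± 78.8 CPM. The mural marker that was higher was *Notch3*. Endothelial markers ran from 2106 to 2805 and from 1259 to 2732 CPM (0 of 10). Schwann cell markers ran from 849 to 1761 and from 764 to 1415 CPM (1 of 8 higher, 4 lower). The gene that was higher, *Pmp22*, made up most of the L1L2-AKO sums, and the other 7, with log2 fold changes from -2.10 to -1.20, summed to 498 to 1296 CPM in L1L2-FF and 161 to 410 in L1L2-AKO. Skeletal muscle markers ran from 13.1 to 23.9 and from 5.08 to 12.0 CPM (0 of 8 tested). No marker of these lists was at 0 in all libraries, and the part of other cells in the changes of the proteases and TIMPs was not tested.

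Genes that act on or beside these enzymes were read from 4 further lists. These lists were chosen with earlier results of these data known, so the shares called in them are descriptions. Of 14 tested activators and cell-surface regulators of MMPs and ADAMs, 3 rose and 0 fell (21.4% called, against 16.5% of all tested genes). *Pcsk5*, a proprotein convertase, went from 20.7 ± 8.97 to 216 ± 66.8 CPM, a rise of 10.4-fold (edgeR, adjusted p = 0.000978), and *Cd44*, a surface receptor that binds hyaluronan and docks MMPs, rose 1.87-fold (edgeR, adjusted p = 0.00433). *Tspan17*, a tetraspanin partner of ADAM10, rose 2.01-fold (edgeR, adjusted p = 0.00884).

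Of 17 tested further proteases of the pericellular space, 8 rose and 2 fell (58.8% called, against 16.5% of all tested genes). *Prss23*, a secreted serine protease, rose 10.6-fold, from 6.58, 10.7 and 6.77 CPM in L1L2-FF to 41.3, 109 and 105 in L1L2-AKO (edgeR, adjusted p = 0.00141), and the cysteine cathepsins *Ctss* and *Ctsk* rose 3.04-fold and 2.56-fold (edgeR, adjusted p = 0.00243 and 0.00512). *Tll1*, a procollagen C-proteinase, was 3.08-fold lower (edgeR, adjusted p = 0.0361), a call that held without L1L2-FF replicate 3 and had an adjusted p between 0.0534 and 0.127 with any other library left out. Of 12 tested protease inhibitors and enhancers outside the TIMP family, 2 rose and 0 fell, a share called of 16.7% against 16.5% of all tested genes. *Serpine2*, an inhibitor of thrombin and plasminogen activators, rose 10.7-fold from 36.7 ± 4.52 to 394 ± 67.5 CPM (edgeR, adjusted p = 0.000128), and *Pcolce*, which speeds procollagen C-propeptide removal and is itself no inhibitor, rose 2.98-fold (edgeR, adjusted p = 0.00186). *A2m*, a broad protease inhibitor, was listed at 0 in all libraries.

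Of 15 tested substrates, 3 rose and 0 fell, which is 20% called against 16.5% of all tested genes. *Thbs1*, which encodes thrombospondin 1, rose 11.6-fold from 187 ± 49.1 to 2178 ± 1060 CPM (edgeR, adjusted p = 0.00141), and *Fn1* and *Col1a1*, for fibronectin and type I collagen, rose 1.72-fold and 1.69-fold (edgeR, adjusted p = 0.0255 and 0.0427). Both held without L1L2-FF replicate 2, and with any other library left out the adjusted p was from 0.0535 to 0.0769 for *Fn1* and from 0.0749 to 0.119 for *Col1a1*, which also missed the threshold with the replicate block (0.0697). The proteoglycans that ADAMTS5 cuts did not pass. *Vcan*, for versican, was at 84.7 ± 17.9 CPM in L1L2-FF and 93.2 ± 11.8 in L1L2-AKO, and *Acan*, for aggrecan, was under 1 CPM in every library. *Vcan* and *Acan* were named after their values were seen.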

How the data were processed

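RNA of 6 libraries (3 per genotype, each a pool of 4 mice) was analysed. The authors aligned paired-end reads to mm10 with HISAT2 2.1.0 and processed them with StringTie 1.3.5. The deposited table holds whole-number counts for each gene symbol, not normalized. The program that counted them, its annotation and its strand setting are not given in the sources used here, so reads of antisense partners could be included. Total counts ran from 30548473 to 32107917.

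Genes were filtered with filterByExpr (minimum count 10, minimum total 15), which kept 15674 of 37384. Libraries were TMM-normalized and tested with edgeR 4.0.16 in R 4.3.3 by the two-sided quasi-likelihood test, with p-values adjusted by Benjamini-Hochberg across all tested genes and a threshold of 0.05. SE is the absolute log2 fold change over the square root of F. CPM are TMM-normalized. TPM used exon-union lengths and positions of GENCODE M21, to which 36888 symbols matched directly, 385 by a synonym and 111 not. Scripts were tested on simulated data. An exact permutation of 3 against 3 libraries cannot go below p = 0.1, so none was used.

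Named were all MMPs and TIMPs, the called genes and the 3 with the highest mean CPM of each other family, and up to 4 called genes of each further list. The genes and lists were chosen with earlier results of these data known. Alternatives were DESeq2 size factors, library size alone, upper-quartile normalization, the DESeq2 1.42.0 Wald test, limma-voom (limma 3.58.1), no filter, at least 10 counts in every library, a 2-fold threshold, the replicate number as a block, and each library left out. Protein motifs were planned and are not analysed here. Figures were drawn with matplotlib 3.10.9.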

Additional observations from a re-analysis of the deposited data

How the results depend on the processing

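Of the 16 genes called, 16 were also called in the same direction under DESeq2 size factors, library size alone, upper-quartile normalization, the DESeq2 Wald test and no filter, 15 in limma-voom and with the replicate block, and 14 with at least 10 counts in every library, where *Mmp13* and *Adamts8* were not tested. With a 2-fold threshold 13 remained, without *Mmp14*, *Timp3* and *Adam22*, and 1366 genes in all were called in place of 2580. With 1 library left out, 10 to 15 of the 16 remained, and the counts ran from 1281 to 2845 for all genes, 10 to 18 for family members that rose and 0 to 2 for those that fell. Of the 16, 10 remained without L1L2-AKO replicate 2 and 10 without replicate 3, 10 members rose without L1L2-AKO replicate 2, and 0 fell without L1L2-AKO replicate 2 or 3. The number that fell was 3 with the DESeq2 Wald test, 0 with limma-voom, 2 with no filter and 2 with at least 10 counts in every library. With the replicate block 2514 genes were called, 15 members rose and 2 fell. Libraries with the same number correlated in their deviations by 0.188, 0.255 and -0.0544, so the numbers were not taken to pair samples.

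The sign changed only for genes with no call. *Mmp8* was at a log2 fold change of 0.11 in limma-voom, 0.0847 with the block and -0.37 to 0.65 with 1 library left out. *Mmp16* was at -0.0173 by library size, -0.0235 by upper quartile, -0.00476 in limma-voom and -0.18 to 0.25 with 1 library left out. *Adam10* was at -0.00405 by upper quartile and -0.0381 to 0.10 with 1 library left out, and *Acan* at -0.0794 in limma-voom and -0.26 to 1.03. The left-out ranges were -0.63 to 0.10 for *Adamtsl3*, -0.0135 to 0.34 for *Adamtsl4*, -0.0380 to 0.30 for *Adamtsl5*, -0.13 to 0.54 for *Mmp9*, -0.77 to 0.00242 for *Mmp3* and -0.25 to 0.12 for *Timp4*. The cause of these shifts was not tested. Genes under 1 CPM in L1L2-FF, such as *Mmp13*, *Mmp27* and *Adamts8*, rest on few counts there.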
